A study of Schizosaccharomyces pombe with 6 samples.

Results

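The deletions of *saf5* and *cwf12* were compared with each other in fission yeast, *Schizosaccharomyces pombe*, by setting the 2 RNA-seq libraries labelled *Δsaf5* directly against the 2 libraries of *Δcwf12*. These are 4 of the 6 libraries of the series. The other 2, from the wild-type strain (WT), entered no test and are given for orientation. No strain was treated, and all cultures were in log phase in rich YE5S medium. In the study's strain list the *Δsaf5* strain is *saf5::NatR leu1-32* of mating type h-, the *Δcwf12* strain is *cwf12::KanR leu1-32* of mating type h+, and WT is a prototroph of mating type h-. The sample labels do not say which listed strain was sequenced. Both deletion strains thus share the leucine marker that WT lacks, and mating type, drug marker and deletion cannot be told apart between them. The members are all gene rows that passed a filter on low counts, 6002 of 7268 genes. Raw counts were tested with edgeR's quasi-likelihood F-test, with Benjamini-Hochberg adjustment over these 6002 genes. CPM, the level of a gene, are its counts scaled to a common library total after TMM normalisation of all 6 libraries. A log2 fold change is *Δsaf5* over *Δcwf12*, so that a positive value means a higher level in the libraries labelled *Δsaf5*. The methods describe the duplicates as biological replicates. With 2 libraries a strain, a gene's own duplicates give 2 residual degrees of freedom. The test adds a spread estimated across all genes, with 50.76 prior degrees of freedom. Each p-value thus rests mostly on that shared spread and little on the gene's own duplicates. Total counts were 9113139 and 9296944 for *Δsaf5*, 12054198 and 9978311 for *Δcwf12*, and 9466664 and 9895408 for WT. Between duplicates, the chi-square of the counts per degree of freedom was 6.08 for *Δsaf5*, 1.99 for *Δcwf12* and 21.9 for WT, so the WT libraries differed the most from each other.

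Both genes act in pre-mRNA splicing. Saf5 belongs to the machinery that builds snRNPs, the RNA and protein particles of the spliceosome, by placing rings of Sm proteins on their snRNAs. Cwf12, called Isy1 in budding yeast, is a component of the Prp19-associated complex (NTC), which joins the spliceosome as it becomes catalytically active. In fission yeast many genes have no intron, and genes needed under starvation, in mating or in meiosis are kept low in cells that divide in rich medium. The direct contrast asks in which functions the transcriptomes of the 2 deletions part from each other.

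The deleted genes were examined first. *cwf12* (SPBC32F12.05c, chromosome II, 2 introns) had 534 and 577 counts in the libraries labelled *Δsaf5*, against 41 and 32 in *Δcwf12* and 556 and 531 in WT. Its log2 fold change, with its standard error (SE) in parentheses, was 4.05 (SE 0.14, adjusted p = 2.2e-31). Its annotated span overlaps *gtb1* (gamma-tubulin) on the other strand. *saf5* (SPAC1610.01, chromosome I, no intron) had 220 and 249 counts in the libraries labelled *Δsaf5*, against 355 and 298 in *Δcwf12* and 323 and 234 in WT. The log2 fold change was -0.36 (SE 0.11, adjusted p = 0.0037), but the ranges of the libraries labelled *Δsaf5* and of WT overlap in CPM. The reads on *saf5* thus remain in the libraries labelled *Δsaf5*, and every direction below rests on that label. Without the first of these libraries the adjusted p of *saf5* was 0.059 and with all 6 libraries in the fit 0.052. The 2 primers with which the study checked the deletions by PCR show where in the genome the sites lie. Each had 1 exact match in the ASM294v3 genome, 25 bases long and printed 5′ to 3′.
J2576, for *saf5*: cgattttgcgaaatgcttaatatgc
J2346, for *cwf12*: ggaacttgagcaaattttcaagtac
J2576 matched the forward strand of chromosome I from 1790458 to 1790482, just upstream of the annotated *saf5*. J2346 matched the reverse strand of chromosome II from 2794200 to 2794224, in the annotated 5′ UTR of *cwf12*, in the first exon.

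The strains differed in many genes. At an adjusted p under 0.05 and at least 2-fold, 250 genes were higher in the libraries labelled *Δsaf5* than in *Δcwf12* (4.17% of the genes tested) and 273 were lower (4.55%). At the adjusted p alone, 1919 genes were higher (32.0%) and 1876 lower (31.3%), and the median log2 fold change over all 6002 genes was 0.03. Most of these differences were small, and 2207 genes passed in neither direction. Counts within the gene lists below use the adjusted p alone unless 2-fold is stated. They are to be read beside the shares of 32.0% and 31.3%. In 4831 genes (80.5%) the CPM of the 2 strains did not overlap. Differences of at least 4-fold were found in 55 genes that were higher and 47 that were lower. The mean of WT lay closer to *Δcwf12* in 154 of the 250 higher genes, and closer to the libraries labelled *Δsaf5* in 199 of the 273 lower genes.

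**Figure D1:**
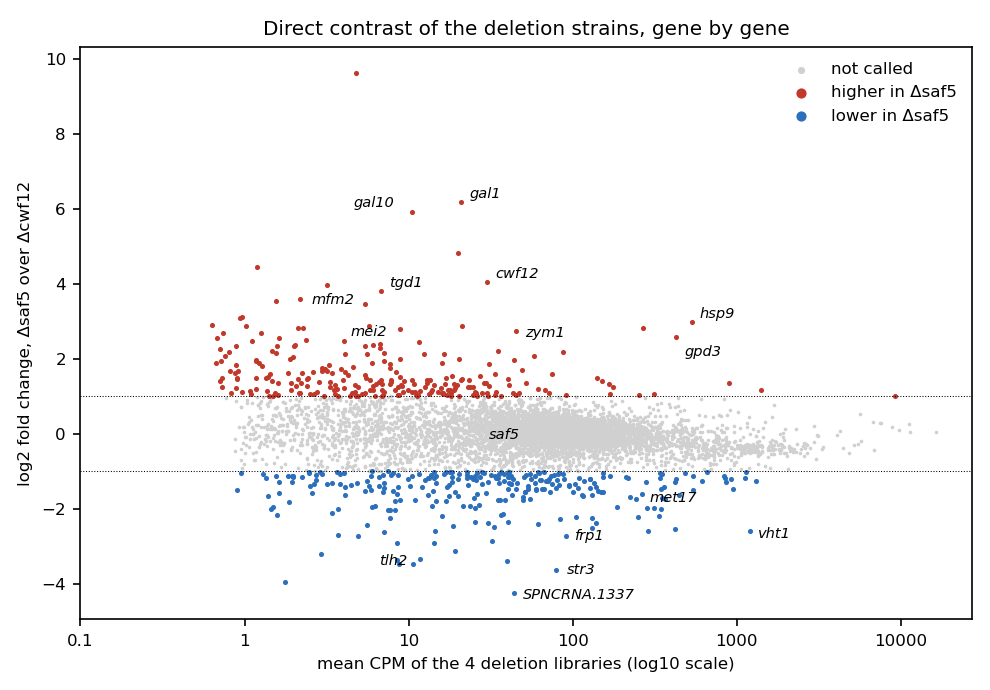
Log2 fold change of each tested gene (vertical axis, *Δsaf5* over *Δcwf12*) against its mean CPM in the 4 deletion libraries (horizontal axis, log scale). Each point is 1 gene, red where it was called higher and blue where it was called lower at least 2-fold in the libraries labelled *Δsaf5*, and dotted lines mark 2-fold. SPNCRNA.1697 and the galactose genes stand at the top, and *str3* and SPNCRNA.1337 at the bottom.

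Amino acid biosynthesis had the lowest median among the lists of 20 or more tested genes. Of 46 genes of this list, all tested, 42 were lower in the libraries labelled *Δsaf5* than in *Δcwf12* (91.3%), 2 were higher (*met11*, a methylenetetrahydrofolate reductase, and *trp4*, of the tryptophan pathway) and 2 passed in neither direction. Neither of the 2 was higher without the first *Δcwf12* library. At least 2-fold, 13 were lower and none was higher. The median log2 fold change was -0.71, against 0.03 over all genes tested, and stayed between -0.78 and -0.69 under every alternative. Summed over the list, the genes took 18810 and 19410 CPM in the libraries labelled *Δsaf5*, against 35140 and 33500 in *Δcwf12* and 23060 and 24170 in WT. The sums do not overlap, and those of WT lie between the deletions, closer to the libraries labelled *Δsaf5*.

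The pathways of arginine, lysine, histidine and methionine held the largest of these differences. *met17*, which encodes homocysteine synthase, had 125 and 135 CPM in the libraries labelled *Δsaf5*, against 402 and 389 CPM in *Δcwf12* and 218 and 283 CPM in WT, log2 fold change -1.59 (SE 0.06, adjusted p = 2.9e-30). Here the libraries labelled *Δsaf5* were the lowest and those of *Δcwf12* the highest. *his4* (imidazoleglycerol-phosphate synthase) had 278 and 283 CPM in the libraries labelled *Δsaf5*, against 814 and 778 CPM in *Δcwf12* and 271 and 318 CPM in WT, log2 fold change -1.49 (SE 0.07, adjusted p = 1.9e-25). *arg4* (the arginine-specific carbamoyl-phosphate synthase) had 524 and 475 CPM in the libraries labelled *Δsaf5*, against 1460 and 1344 CPM in *Δcwf12* and 631 and 705 CPM in WT, log2 fold change -1.47 (SE 0.08, adjusted p = 1.1e-21). For these 2 genes *Δcwf12* alone stood apart, while the libraries labelled *Δsaf5* lay near or below WT. The other arginine enzymes followed, with log2 fold changes of -1.35 for *arg7* (argininosuccinate lyase), -1.19 for *arg5*, -1.19 for *arg12* (argininosuccinate synthase) and -1.16 for *arg3* (ornithine carbamoyltransferase). Of the lysine enzymes, *lys1* (aminoadipate-semialdehyde dehydrogenase) had a log2 fold change of -1.26, *lys4* (homocitrate synthase) -1.25 and *lys3* (saccharopine dehydrogenase) -1.21. *his3* (histidinol-phosphate aminotransferase, -1.29), *hom2* (aspartate semialdehyde dehydrogenase, -1.02) and *leu3* (isopropylmalate synthase, -1.01) complete the 13 genes. The aspartate kinase gene *hom3*, not in the list and chosen after its values were seen, had a log2 fold change of -1.63. *fil1*, which encodes a transcription factor that activates such genes and is likewise outside the list, had 293 and 318 CPM in the libraries labelled *Δsaf5*, against 334 and 338 CPM in *Δcwf12* and 310.1 and 338 CPM in WT, log2 fold change -0.12 (SE 0.06, adjusted p = 0.060).

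**Figure D2:**
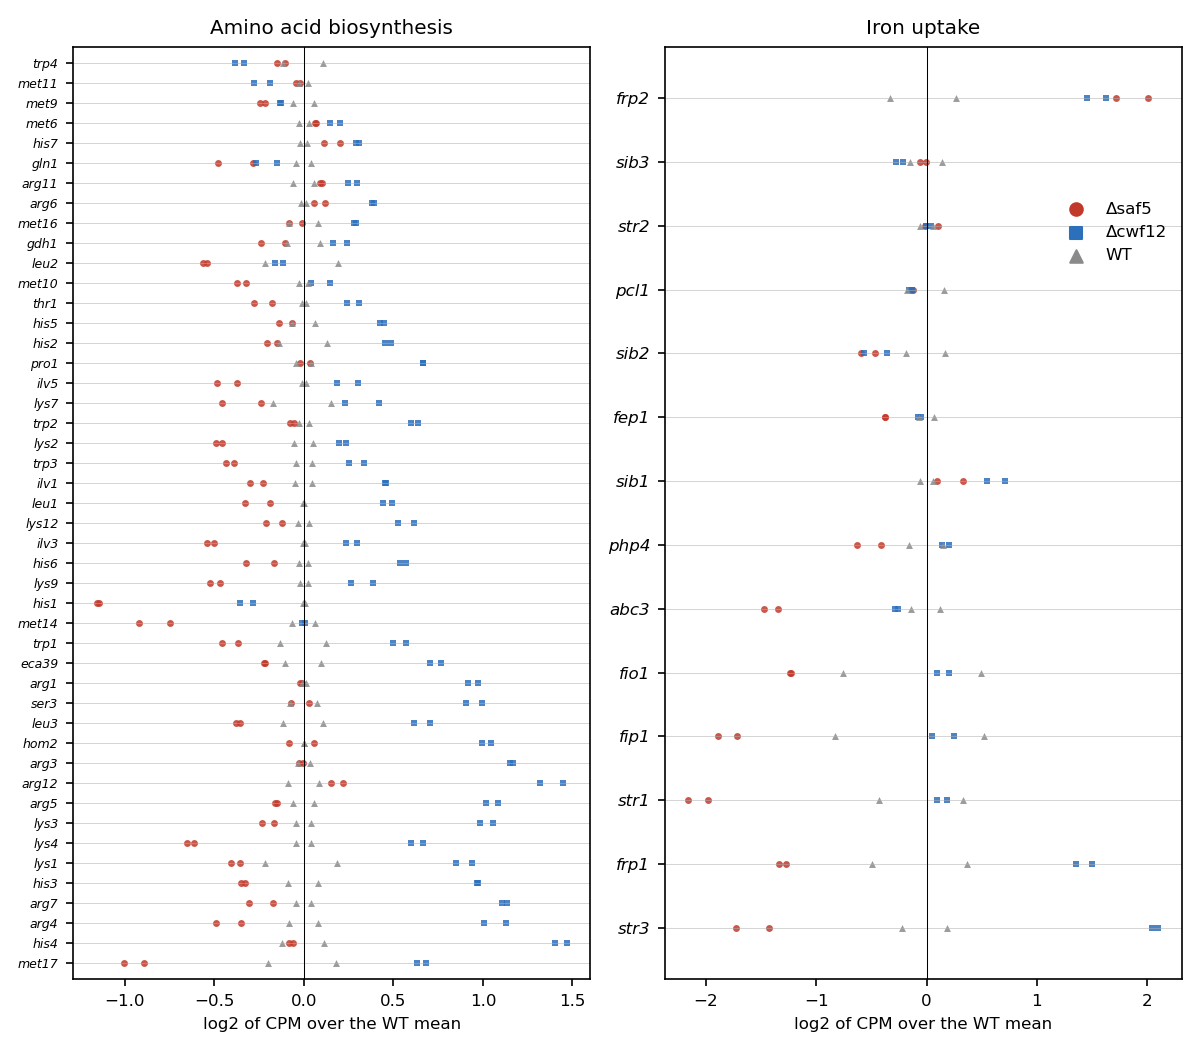
CPM of each library over the mean of the 2 WT libraries (log2, horizontal axes) for the amino acid biosynthesis genes (left) and the iron uptake genes (right), ordered by log2 fold change. Circles are the libraries labelled *Δsaf5*, squares *Δcwf12* and triangles WT. For most of the lower amino acid genes the squares lie right of 0, while for *str1*, *fip1* and *fio1* the circles lie left of 0.

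Uptake of amino acids was divided. Of 19 genes induced by nitrogen starvation or encoding permeases, 8 were higher and 8 lower (42.1% each), and 2 were higher at least 2-fold. *isp4*, an oligopeptide transporter, had 141 and 143 CPM in the libraries labelled *Δsaf5*, against 32.4 and 30.5 CPM in *Δcwf12* and 85.1 and 91.9 CPM in WT, log2 fold change 2.19 (SE 0.07, adjusted p = 1.1e-32). The permease gene *aat1* had 47.6 and 44.7 CPM in the libraries labelled *Δsaf5*, against 118 and 122 CPM in *Δcwf12* and 143 and 151 CPM in WT, log2 fold change -1.36 (SE 0.07, adjusted p = 7.8e-24), and so differed the other way, with WT close to *Δcwf12*. The arginine and lysine transporter gene *cat1* was lower (-0.81) and the vacuolar protease gene *isp6* higher (1.06).

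Genes of nucleotide synthesis and of ribosomal proteins were lower in the libraries labelled *Δsaf5* by small amounts in nearly every member. Of 16 genes of purine and pyrimidine synthesis, 15 were lower and none higher, with a median of -0.41. Without the first *Δcwf12* library 9 were called lower. *ade2*, adenylosuccinate synthetase, was the member past 2-fold, with 332 and 348 CPM in the libraries labelled *Δsaf5*, against 766 and 728 CPM in *Δcwf12* and 557 and 599.8 CPM in WT and log2 fold change -1.12 (SE 0.07, adjusted p = 3.1e-20). Of 84 genes of large ribosomal subunit proteins, 78 were lower (median -0.40), and of 55 small subunit genes, 53 (median -0.39). None of either list was higher. DESeq2 called 69 of the large and 52 of the small subunit genes lower. The large subunit genes summed to 75750 and 90300 CPM in the libraries labelled *Δsaf5*, against 111900 and 108000 in *Δcwf12* and 116300 and 111200 in WT. The 2 libraries labelled *Δsaf5* differed from each other here, and with one or the other left out the median of the large subunit genes ran from -0.54 to -0.27. Without the first *Δcwf12* library this median was -0.37, and without the second -0.42. Many ribosomal proteins are encoded by near-identical paralogs, so values of single copies are uncertain. The one copy past 2-fold, *rpl1603*, had 41.8 and 42.2 CPM in the libraries labelled *Δsaf5*, against 119 and 112 CPM in *Δcwf12* and 208 and 201 CPM in WT, log2 fold change -1.45 (SE 0.07, adjusted p = 1.1e-24). Of 78 ribosome biogenesis genes, 37 were lower and 6 higher (median -0.10), while without the first *Δcwf12* library 22 were lower and 2 higher, without the second 19 were lower, and without the first library labelled *Δsaf5* 11 were higher. The median was -0.15 without the second library labelled *Δsaf5*.

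Iron uptake held some of the strongest differences on the lower side. Fission yeast takes up iron through cell-surface reductases, a permease with its oxidase, and transporters of siderophores, which are small iron chelators. Of 14 tested genes (15 in the list), 9 were lower in the libraries labelled *Δsaf5*, 2 were higher (1 without the first library labelled *Δsaf5* or without either *Δcwf12* library) and 3 passed in neither direction, and 6 were lower at least 2-fold. The siderophore transporter gene *str3* had 12.9 and 10.6 CPM in the libraries labelled *Δsaf5*, against 149.6 and 143 CPM in *Δcwf12* and 39.8 and 29.9 CPM in WT, log2 fold change -3.62 (SE 0.09, adjusted p = 3.8e-38). The ferric reductase gene *frp1* had 24.2 and 23.2 CPM in the libraries labelled *Δsaf5*, against 166 and 150 CPM in *Δcwf12* and 75.7 and 41.6 CPM in WT, log2 fold change -2.72 (SE 0.08, adjusted p = 9.7e-36). In both genes *Δcwf12* lay above WT and the libraries labelled *Δsaf5* below it. The siderophore transporter gene *str1* had 128 and 113 CPM in the libraries labelled *Δsaf5*, against 573 and 536 CPM in *Δcwf12* and 633 and 374 CPM in WT, log2 fold change -2.19 (SE 0.07, adjusted p = 2.4e-34). For the iron permease gene *fip1* the values were 80.6 and 71.8 CPM in the libraries labelled *Δsaf5*, against 316 and 274 CPM in *Δcwf12* and 381 and 149.5 CPM in WT, log2 fold change -1.94 (SE 0.06, adjusted p = 9.7e-33). In both genes the libraries labelled *Δsaf5* were below all others, and the duplicates of WT lay on either side of *Δcwf12*. Its partner oxidase *fio1* (-1.37) and the vacuolar transporter gene *abc3* (-1.12) were also lower. *php4*, which encodes a repressor of iron-using genes that acts when iron is scarce, was lower (-0.68), as was *fep1* (-0.30), whose product represses iron uptake when iron is plentiful. Of the siderophore synthesis genes, *sib1* was lower (-0.40), *sib3* higher (0.23), and *sib2* had log2 fold change -0.06 (SE 0.09, adjusted p = 0.60). Outside the list and chosen after their values were seen, the iron-sulfur cluster scaffold gene *isu1* (-1.47), the mitochondrial iron carrier gene *mrs3* (-1.24) and *fet4* (-1.17) were lower as well.

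Metals other than iron behaved differently from gene to gene. Of 10 copper and zinc genes 6 were higher and 3 lower. *zym1*, the metallothionein, a small metal-binding protein, had 76.8 and 81.0 CPM in the libraries labelled *Δsaf5*, against 12 and 11.7 CPM in *Δcwf12* and 10.2 and 15.2 CPM in WT, log2 fold change 2.75 (SE 0.10, adjusted p = 8.7e-31). WT lay with *Δcwf12*. The copper transporter genes *ctr5* (0.83) and *ctr4* (0.53) were higher, and the zinc transporter genes *zrt1* (-0.69) and *zhf1* (-0.40) lower.

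Genes of biotin and fatty acid metabolism were lower in the libraries labelled *Δsaf5*. Biotin is the cofactor of acetyl-CoA carboxylase, which begins fatty acid synthesis. Of 15 genes of the list, 10 were lower and 3 higher (1 without either *Δcwf12* library), with a median of -0.36. *vht1*, the biotin transporter of the plasma membrane, had 337 and 337 CPM in the libraries labelled *Δsaf5*, against 2107 and 2027 CPM in *Δcwf12* and 954 and 1015 CPM in WT, log2 fold change -2.60 (SE 0.09, adjusted p = 3.2e-31). WT lay between the strains. *bio2* (biotin synthase) had 219 and 219.7 CPM in the libraries labelled *Δsaf5*, against 463 and 453 CPM in *Δcwf12* and 353 and 359 CPM in WT, log2 fold change -1.05 (SE 0.06, adjusted p = 6.5e-22). *cut6*, acetyl-CoA carboxylase, had 477 and 482 CPM in the libraries labelled *Δsaf5*, against 780.1 and 744 CPM in *Δcwf12* and 998 and 1046 CPM in WT, log2 fold change -0.65 (SE 0.07, adjusted p = 2.9e-11), with both deletions below WT. *cbf11*, which encodes a regulator of lipid metabolism genes, was lower as well (-0.88), as were the fatty acid synthase genes *fas1* (-0.45) and *fas2* (-0.36). In the thiamine list 5 of 10 genes were lower, *thi4* (-0.75) and *thi2* (-0.65), for enzymes of thiamine synthesis, among them, and none was higher.

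The genes of galactose use stood highest on the other side, and all 4 of their list were higher in the libraries labelled *Δsaf5*. Gal1, Gal7 and Gal10 carry out the steps from galactose to UDP-glucose, and their genes lie side by side near an end of chromosome II, the 12th to 15th coding genes from it, with *tgd1* between them. *gal1* had 43.4 and 38.9 CPM in the libraries labelled *Δsaf5*, against 0.785 and 0.307 CPM in *Δcwf12* and 33.8 and 54.0 CPM in WT, log2 fold change 6.17 (SE 0.22, adjusted p = 9.5e-31). *gal7* had 37.2 and 40.5 CPM in the libraries labelled *Δsaf5*, against 1.57 and 1.12 CPM in *Δcwf12* and 22.0 and 25.2 CPM in WT, log2 fold change 4.83 (SE 0.19, adjusted p = 2.3e-29). *gal10* had 21.1 and 20.1 CPM in the libraries labelled *Δsaf5*, against 0.349 and 0.307 CPM in *Δcwf12* and 3.98 and 10.3 CPM in WT, log2 fold change 5.93 (SE 0.29, adjusted p = 6.3e-25). All 3 were near 0 in *Δcwf12* alone, and the libraries labelled *Δsaf5* were in the range of WT for *gal1* and above it for *gal7* and *gal10*. *tgd1*, a nucleotide-sugar dehydratase gene that overlaps *gal10* on the other strand, was also higher (3.82). *mel1*, for the melibiase that frees galactose from disaccharides and near an end of chromosome I, had 22 and 23 counts in the libraries labelled *Δsaf5*, against 1 and 1 in *Δcwf12* and 2 and 1 in WT, too few in *Δcwf12* for a stable fold. *gal1*, *gal10* and *mel1* had fewer than 10 counts in each *Δcwf12* library and passed the filter through the libraries labelled *Δsaf5*. With 10 counts required in every library, *gal7* was the 1 gene of these 4 still tested (log2 fold change 4.84). SPNCRNA.1697, a noncoding RNA annotated opposite *gal1*, had 99 and 90 counts in the libraries labelled *Δsaf5*, 0 in both libraries of *Δcwf12*, and 55 and 49 in WT. Against a floor of 3 counts per library it was at least 33.7-fold higher, a bound for counting error only, and it was chosen after its values were seen.

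Stress-response genes were in the main higher in the libraries labelled *Δsaf5* than in *Δcwf12*. Sty1 is the stress-activated MAP kinase of fission yeast, and Atf1 is the transcription factor through which it induces many of these genes. Of 25 genes of the list, 16 were higher and 6 lower, 7 were higher at least 2-fold, and the median was 0.36. DESeq2 called 3 lower, as did the fit without the first *Δcwf12* library. *hsp9*, a small membrane-associated heat shock protein, had 956 and 925 CPM in the libraries labelled *Δsaf5*, against 123 and 118 CPM in *Δcwf12* and 465 and 496 CPM in WT, log2 fold change 2.98 (SE 0.08, adjusted p = 9.5e-38). Here WT lay between the deletions. *gpx1* (glutathione peroxidase) had 254 and 239.6 CPM in the libraries labelled *Δsaf5*, against 107 and 101 CPM in *Δcwf12* and 190.5 and 219.7 CPM in WT, log2 fold change 1.26 (SE 0.06, adjusted p = 1.7e-26). *ctt1* (catalase) had 100.2 and 94.6 CPM in the libraries labelled *Δsaf5*, against 48.9 and 42.9 CPM in *Δcwf12* and 95.9 and 109 CPM in WT, log2 fold change 1.09 (SE 0.07, adjusted p = 8.7e-19), with WT among the libraries labelled *Δsaf5*. The remaining members past 2-fold were *lsd90* (1.98), *rds1* (1.20), *dak2* (1.15) and, just above 2-fold, *pyp2*, for a phosphatase that acts on Sty1. *rds1* was far higher in WT than in any deletion library, with 86.0 and 84.6 CPM in the libraries labelled *Δsaf5*, against 37.0 and 37.8 CPM in *Δcwf12* and 358 and 508 CPM in WT. The regulators did not move together. *sty1* itself was higher (0.68), *pcr1*, the partner of Atf1, was higher (0.83), and *atf1* was lower, with 67.4 and 71.3 CPM in the libraries labelled *Δsaf5*, against 120.2 and 119 CPM in *Δcwf12* and 136 and 174 CPM in WT and log2 fold change -0.77 (SE 0.06, adjusted p = 1.7e-15). Among 22 antioxidant and Pap1-dependent genes, 8 were higher (36.4%) and 9 lower (40.9%), from *ctt1* (1.09) and *grx1* (1.04) to *bfr1* (-1.29), an efflux transporter gene.

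Within glycolysis and fermentation most genes moved little, and a few stood out. Of 18 genes, 5 were higher and 4 lower, 3 and 1 of them at least 2-fold. DESeq2 called 8 higher, as did edgeR without the first library labelled *Δsaf5*, and 3 were higher without the second *Δcwf12* library. *gpd3*, a glyceraldehyde 3-phosphate dehydrogenase gene, had 702 and 749.7 CPM in the libraries labelled *Δsaf5*, against 129 and 117 CPM in *Δcwf12* and 198 and 391.6 CPM in WT, log2 fold change 2.57 (SE 0.07, adjusted p = 1.2e-36). *eno102*, an enolase gene near an end of chromosome II, had 61 and 57 counts in the libraries labelled *Δsaf5*, against 6 and 2 in *Δcwf12* and 17 and 46 in WT, log2 fold change 3.96 (SE 0.38, adjusted p = 2.4e-13). The second WT library was well above the first in both genes, and the deletions did not overlap. *eno102* had fewer than 10 counts in each *Δcwf12* library, too few for a stable fold. It passed the filter through the libraries labelled *Δsaf5*. With 10 counts required in every library 17 genes of the list were tested, and 2 were higher at least 2-fold. *pgk1*, the phosphoglycerate kinase gene, had 11770 and 12620 CPM in the libraries labelled *Δsaf5*, against 6330 and 5888 CPM in *Δcwf12* and 5231 and 8432 CPM in WT, log2 fold change 1.01 (SE 0.14, adjusted p = 2.8e-08). *adh4*, an alcohol dehydrogenase gene, differed the other way, with 108 and 116 CPM in the libraries labelled *Δsaf5*, against 386 and 369 CPM in *Δcwf12* and 198 and 184 CPM in WT and log2 fold change -1.74 (SE 0.06, adjusted p = 3.9e-32).

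Genes that start mating were higher in the libraries labelled *Δsaf5*. Starvation induces the transcription factor Ste11, and pheromone signals pass through a G protein (Gpa1), an adaptor (Ste4) and the kinases Byr2, Byr1 and Spk1. Of 17 genes of this list, 11 were higher and 2 lower, and 4 were higher at least 2-fold. *ste11* had 25.2 and 29.2 CPM in the libraries labelled *Δsaf5*, against 9.16 and 9.81 CPM in *Δcwf12* and 15.5 and 23.3 CPM in WT, log2 fold change 1.53 (SE 0.14, adjusted p = 1.7e-14). *ste4* had 25.7 and 27.9 CPM in the libraries labelled *Δsaf5*, against 5.76 and 6.64 CPM in *Δcwf12* and 14.3 and 10.3 CPM in WT, log2 fold change 2.13 (SE 0.15, adjusted p = 2.2e-18). *gpa1* had 50.5 and 49.6 CPM in the libraries labelled *Δsaf5*, against 15.6 and 18.0 CPM in *Δcwf12* and 32.6 and 30.7 CPM in WT, log2 fold change 1.60 (SE 0.10, adjusted p = 1.6e-19). In these 3 genes WT lay between the deletions. *spk1* (1.10), *byr1* (0.99) and *byr2* (0.79) were higher as well, and *ras1* (-0.24) and *prm1* (-0.40) lower.

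The genes that mark the 2 mating types were read with the strain list in mind, in which *Δsaf5* and WT are h- (M cells) and *Δcwf12* is h+ (P cells). Of 8 M genes 6 were tested, 4 were higher in the libraries labelled *Δsaf5* and none was lower. With 10 counts required in every library 3 were tested and 2 were higher. *mfm2*, a precursor of the pheromone M-factor, had 98 and 98 counts in the libraries labelled *Δsaf5*, against 7 and 12 in *Δcwf12* and 92 and 92 in WT, log2 fold change 3.47 (SE 0.28, adjusted p = 1.2e-15). *mam2*, the receptor for the pheromone of P cells, had 10.3 and 9.51 CPM in the libraries labelled *Δsaf5*, against 4.71 and 3.07 CPM in *Δcwf12* and 4.96 and 2.23 CPM in WT, log2 fold change 1.34 (SE 0.21, adjusted p = 1.7e-07). In *mam2* WT lay with *Δcwf12*. *mam1*, the M-factor transporter, had 59.6 and 54.8 CPM in the libraries labelled *Δsaf5*, against 34.0 and 41.0 CPM in *Δcwf12*. WT had 53.3 and 49.9 CPM, and the log2 fold change was 0.63 (SE 0.09, adjusted p = 1.75e-08). *mfm3* had 12 and 17 counts in the libraries labelled *Δsaf5*, against 3 and 3 in *Δcwf12* and 6 and 6 in WT, too few for a stable fold. *mat1-Mc*, the gene that defines M cells, was at 0 in all 6 libraries. As this includes WT, listed as h-, the gene does not tell the mating types apart here. The M genes summed to 142 and 144 CPM in the libraries labelled *Δsaf5*, against 98.2 and 102 in *Δcwf12* and 99.0 and 95.7 in WT. Of 5 P genes 4 were higher and none lower. *map1* had 7.65 and 8.58 CPM in the libraries labelled *Δsaf5*, against 2.88 and 2.56 CPM in *Δcwf12* and 3.98 and 2.02 CPM in WT, log2 fold change 1.58 (SE 0.23, adjusted p = 3.9e-08). The P genes summed to 563 and 559.9 CPM in the libraries labelled *Δsaf5*, against 474 and 448 in *Δcwf12* and 526 and 602 in WT. Markers of both mating types were thus higher in the same libraries. The M genes *mfm2* and *mam1* were lower in *Δcwf12* than in all other libraries, and so was the P gene *sxa1* (log2 fold change 0.25). The M-factor genes are similar to one another, so their single values are uncertain.

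Meiotic genes were divided, with more of them higher. Of 103 tested genes named mug or meu for their expression in meiosis, 14 were higher and 4 lower at least 2-fold (median 0.26). At the adjusted p alone 48 were higher (46.6%) and 26 lower (25.2%), against 32.0% and 31.3% of all genes tested. Without the first *Δcwf12* library 17 were lower. *mei2*, the RNA-binding protein that starts meiosis, had 15.6 and 15.4 CPM in the libraries labelled *Δsaf5*, against 2.53 and 1.94 CPM in *Δcwf12* and 3.34 and 5.74 CPM in WT, log2 fold change 2.79 (SE 0.21, adjusted p = 3.9e-17). *mug14* followed (2.38). Among 16 tested genes whose meiotic transcripts are removed by Mmi1 in dividing cells, 6 were higher (37.5%) and 2 lower (12.5%). The higher share was near that of all genes, and the median was 0.09. *jnm1* (1.26) and *rec10* (0.68) were higher and *mug8* (-0.62) lower. *mmi1* differed by 0.24, which DESeq2 did not call (adjusted p = 0.062) and edgeR did not call without the first *Δcwf12* library (adjusted p = 0.055). The later meiotic genes used as markers of meiotic cells were low in every library. *mei4*, for a transcription factor of meiosis, had 111 and 115 counts in the libraries labelled *Δsaf5*, against 138 and 123 in *Δcwf12* and 94 and 104 in WT (adjusted p = 0.63), *spo5* and *rec8* passed in neither direction, and *spo6* was lower (-0.83). *spn5*, a meiotic septin gene, differed the other way, with 20 and 19 counts in the libraries labelled *Δsaf5*, against 171 and 149 in *Δcwf12* and 20 and 25 in WT and log2 fold change -2.91 (SE 0.22, adjusted p = 3.7e-17).

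Respiration and protein degradation were slightly higher in the libraries labelled *Δsaf5*. Of 55 genes of the respiratory chain, the ATP synthase and their assembly, 34 were higher and 2 lower (median 0.22). The 2 lower genes were *sdh7* (-0.70) and *cox20* (-0.77). Of 39 mitochondrial ribosomal protein genes 20 were higher and none lower (median 0.17), and of 35 proteasome genes 24 were higher and 1 lower, *rpn502* (median 0.20). None of these genes differed 2-fold. Of 16 genes of the TOR pathway, which couples growth to nutrients, 10 were higher and 1 lower (median 0.23). *tor1* itself had log2 fold change 0.37 (SE 0.06, adjusted p = 1.6e-06).

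Histone and cell cycle genes parted in opposite directions. Of 11 histone genes 9 were higher, all for canonical histones, and 2 were lower, *cnp1* (-0.40) for the centromeric histone and *pht1* (-0.31) for the variant H2A.Z. Without the second *Δcwf12* library 1 was lower. *hhf3*, a histone H4 gene, had 355 and 370.2 CPM in the libraries labelled *Δsaf5*, against 189 and 189.7 CPM in *Δcwf12* and 342 and 514 CPM in WT, log2 fold change 0.95 (SE 0.06, adjusted p = 5.2e-21). Histone copies are near-identical, so single values are uncertain. MBF is the factor that drives transcription at the start of the cell cycle. Of 20 MBF genes, the factor's own subunits and regulators included, 13 were lower and 3 higher (median -0.25). The 3 higher were the subunit genes *cdc10* (0.21), *res1* (0.28) and *res2* (0.49). The regulator genes *yox1* (-0.49) and *rep2* (-0.23) were lower, and *nrm1* (0.02) passed in neither direction. *mik1*, an inhibitory kinase of mitosis, had 26.8 and 26.8 CPM in the libraries labelled *Δsaf5*, against 48.7 and 49.8 CPM in *Δcwf12* and 94.2 and 70.3 CPM in WT, log2 fold change -0.86 (SE 0.09, adjusted p = 1.4e-11), and *tos4* (-0.69) and *cdc18* (-0.56) were lower too. Both deletions lay below WT in *mik1*. Of 14 septation genes 8 were lower and 2 higher. Without the first *Δcwf12* library 5 were lower and 1 higher, without the second none was higher, and without the first library labelled *Δsaf5* 1 was higher. *eng1*, the glucanase that cuts the septum, had 165 and 169.5 CPM in the libraries labelled *Δsaf5*, against 289.6 and 278 CPM in *Δcwf12* and 765 and 664 CPM in WT, log2 fold change -0.75 (SE 0.05, adjusted p = 1.5e-17). Here the libraries labelled *Δsaf5* were the lowest and WT the highest.

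The splicing machinery itself held *cwf12* as its member past 2-fold. Of 12 genes for snRNP assembly and Sm proteins, *saf5* included, 3 were higher (25%) and 5 lower (41.7%), against 32.0% and 31.3% of all genes tested. *smf1*, an Sm ring protein, came closest, with 39.1 and 38.8 CPM in the libraries labelled *Δsaf5*, against 76.3 and 74.3 CPM in *Δcwf12* and 66.2 and 59.6 CPM in WT and log2 fold change -0.94 (SE 0.08, adjusted p = 3.1e-15). *mpn1*, which trims U6 snRNA, was higher (0.86), and *smn1* lower (-0.35). Of 19 Prp19 complex genes 7 were higher (36.8%), among them *cwf12*, and 3 lower (15.8%). Apart from *cwf12* the differences there stayed under 2-fold, from *cwf18* (0.57) to *spf38* (-0.54). Of 30 other spliceosome genes 9 were higher (30.0%) and 5 lower (16.7%), with the highest values in *prp28* (0.77) and *prp16* (0.56). DESeq2 called 5 higher and 1 lower. Without the first *Δcwf12* library 5 were higher and 3 lower, without the second 1 was lower, and without the first library labelled *Δsaf5* 15 were higher.

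Coding genes without introns did not lack differences. Of 2511 tested coding genes with no intron, 90 were higher (3.58%) and 91 lower (3.62%) at least 2-fold. With 1 intron these were 21 (1.92%) and 22 (2.01%) of 1094, with 2 introns 6 (0.929%) and 9 (1.39%) of 646, with 3 introns 7 and 7 of 356 (1.97% each), with 4 introns 1 (0.602%) and 6 (3.61%) of 166, and with 5 or more 3 and 3 of 169 (1.78% each). The median log2 fold change was 0.09 for genes without introns and -0.03 for genes with 1. These counts per gene do not separate spliced from unspliced transcripts.

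Several repeat and chromosome-end transcripts were lower in the libraries labelled *Δsaf5* than in *Δcwf12*. *tlh2*, a helicase gene, the first from an end of its chromosome, had 22 and 19 counts in the libraries labelled *Δsaf5*, against 225 and 228 in *Δcwf12* and 4 and 2 in WT, log2 fold change -3.34 (SE 0.20, adjusted p = 8.0e-21). Its reads may be shared with near-identical copies at other ends. Of 22 annotated centromeric noncoding RNAs, a group taken from the annotation after values were seen, 4 were tested, 3 were lower and none higher. SPNCRNA.373 had 13 and 15 counts in the libraries labelled *Δsaf5*, against 179 and 160 in *Δcwf12* and 0 and 1 in WT, log2 fold change -3.47 (SE 0.23, adjusted p = 4.5e-19). SPNCRNA.234 had 130 and 103 counts in the libraries labelled *Δsaf5*, against 233 and 177 in *Δcwf12* and 2 and 1 in WT, log2 fold change -0.69 (SE 0.14, adjusted p = 3.1e-05). SPNCRNA.231 had 32 and 39 counts in the libraries labelled *Δsaf5*, against 37 and 32 in *Δcwf12* and 0 and 1 in WT, log2 fold change 0.16 (SE 0.26, adjusted p = 0.60). Both deletions lay above WT in these 3 RNAs, and in SPNCRNA.373 *Δcwf12* by far the most. The 5 tested copies of the Tf2 retrotransposon, of 13 in the list, were all lower. One of them, Tf2-4, had 2 and 2 counts in the libraries labelled *Δsaf5*, against 45 and 26 in *Δcwf12*. It passed the filter through *Δcwf12*. With 10 counts required in every library 4 copies were tested, and all 4 were lower (median -1.72). Tf2-11 had 43 and 37 counts in the libraries labelled *Δsaf5*, against 289 and 237 in *Δcwf12* and 30 and 63 in WT, log2 fold change -2.59 (SE 0.17, adjusted p = 7.9e-20), and the copies summed to 18.5 and 15.4 CPM in the libraries labelled *Δsaf5*, against 74.2 and 65.8 in *Δcwf12* and 12.1 and 15.8 in WT. As the copies are near-identical, single values are uncertain. Of 25 heterochromatin and RNAi genes 10 were higher (40.0%) and 7 lower (28.0%), against 32.0% and 31.3% of all genes tested, and none differed 2-fold.

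A larger share of the coding genes near the chromosome ends was called than of the others. Among the first 25 coding genes from an end, 18 of 90 tested were higher (20%) and 5 lower (5.56%) at least 2-fold. From the 26th to the 50th, 6 of 143 were higher (4.20%) and 21 lower (14.7%), and from the 51st to the 100th, 2 of 291 were higher (0.687%) and 20 lower (6.87%). Farther in, 102 of 4418 were higher (2.31%) and 92 lower (2.08%). The balance of directions among these calls changed with distance, and neighbouring genes are not independent of each other. The 18 genes of the first class include the galactose genes, *mel1*, *eno102*, *pcm2*, *dak2* and *ctt1*. Of these, *gal1*, *gal10*, *mel1* and *eno102* had fewer than 10 counts in each *Δcwf12* library. They passed the filter through the libraries labelled *Δsaf5*, so the share of higher genes in this class depends in part on the filter. The classes were not recounted with 10 counts required in every library. A stretch of chromosome I, made of the genes whose IDs begin with SPAC11D3 or SPAC5H10 (ranks 36 to 66), held 12 lower and 2 higher of 31 tested and was chosen after its values were seen. In it SPAC11D3.09, an agmatinase gene, had 6.56 and 7.13 CPM in the libraries labelled *Δsaf5*, against 76.3 and 68.0 CPM in *Δcwf12* and 4.74 and 9.66 CPM in WT, log2 fold change -3.38 (SE 0.12, adjusted p = 1.3e-31). SPAC11D3.18c, for a carboxylic acid transporter, had 7.65 and 7.65 CPM in the libraries labelled *Δsaf5*, against 56.1 and 56.8 CPM in *Δcwf12* and 7.0 and 8.28 CPM in WT, log2 fold change -2.87 (SE 0.12, adjusted p = 4.6e-28). In both genes WT was level with the libraries labelled *Δsaf5*, and *Δcwf12* alone was high.

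**Figure D3:**
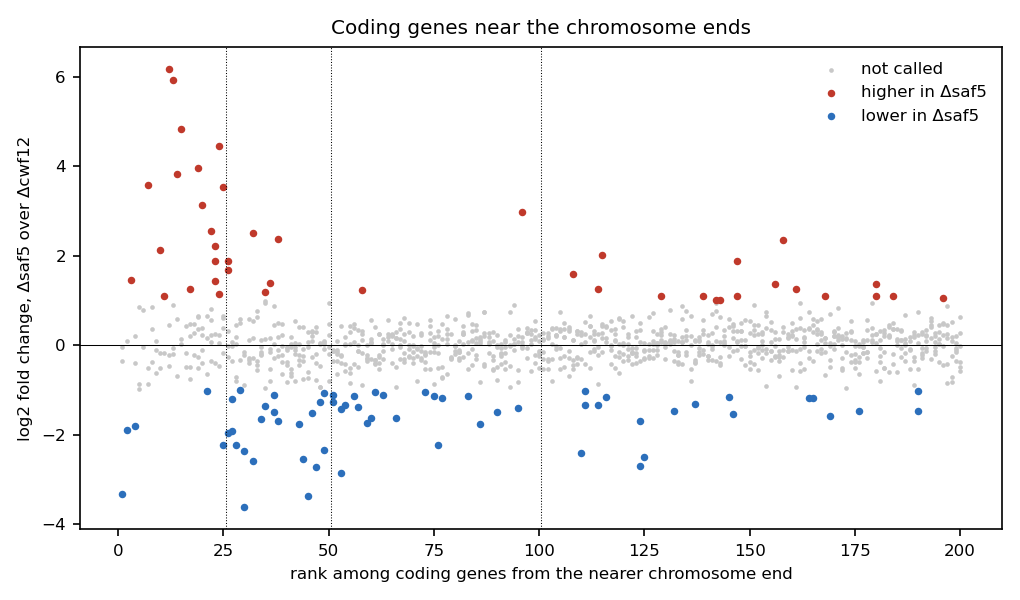
Log2 fold change of coding genes (vertical axis, *Δsaf5* over *Δcwf12*) against their rank from the nearer chromosome end (horizontal axis). Red and blue points were called higher and lower at least 2-fold, grey points were not called, and dotted lines separate the rank classes. Red points gather within the first 25 ranks and blue points beyond them.

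Some of the largest differences in coding genes belonged to no list. On the higher side, SPAC4H3.08, a 3-hydroxyacyl-CoA dehydrogenase gene, had 37.2 and 36.7 CPM in the libraries labelled *Δsaf5*, against 4.62 and 5.52 CPM in *Δcwf12* and 5.28 and 9.35 CPM in WT, log2 fold change 2.89 (SE 0.14, adjusted p = 1.5e-24). SPAPB24D3.07c, of unknown function, had 427 and 508 CPM in the libraries labelled *Δsaf5*, against 64.1 and 69.1 CPM in *Δcwf12* and 206 and 442 CPM in WT, log2 fold change 2.83 (SE 0.07, adjusted p = 2.9e-38). WT lay near *Δcwf12* in the first gene. In the second, one WT library lay between the deletions and the other among the libraries labelled *Δsaf5*. *ssd2*, for succinate-semialdehyde dehydrogenase, had a log2 fold change of 2.46 and SPAC26F1.11 one of 2.34. On the lower side, SPBC1271.07c (an N-acetyltransferase) had 40.6 and 36.9 CPM in the libraries labelled *Δsaf5*, against 222 and 223 CPM in *Δcwf12* and 24.9 and 36.3 CPM in WT, log2 fold change -2.51 (SE 0.07, adjusted p = 3.1e-37). SPCC70.08c (a methyltransferase) had 43.3 and 46.0 CPM in the libraries labelled *Δsaf5*, against 234 and 234 CPM in *Δcwf12* and 19.5 and 22.0 CPM in WT, log2 fold change -2.37 (SE 0.06, adjusted p = 5.2e-37). In both, *Δcwf12* stood above all other libraries. SPAC1039.02 (a phosphatase) had 122 and 124 CPM in the libraries labelled *Δsaf5*, against 739 and 706 CPM in *Δcwf12* and 569 and 554 CPM in WT, log2 fold change -2.54 (SE 0.07, adjusted p = 1.0e-36), and there the libraries labelled *Δsaf5* stood below all others. The same was seen for SPBPB7E8.01 (-2.59). SPBC1773.13 (an aromatic aminotransferase, -2.41), SPCC965.14c (a cytosine deaminase, -2.35) and SPAC6C3.03c (-2.72) complete the 15 lowest, among which were also *str3*, *tlh2*, *spn5*, *frp1*, *vht1*, Tf2-11 and the 2 genes of the SPAC11D3 stretch.

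**Figure D4:**
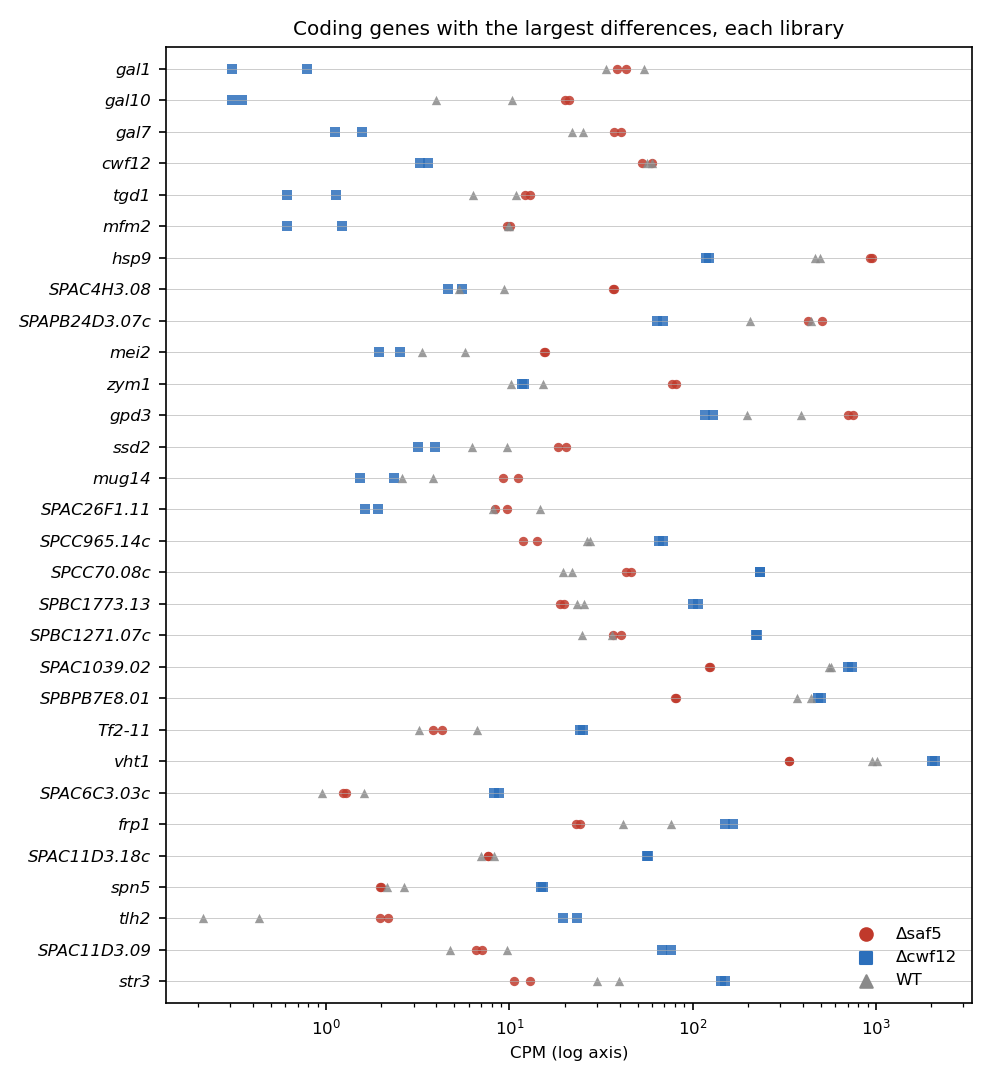
CPM of each library (horizontal axis, log scale) for the 15 coding genes with the largest and the 15 with the smallest log2 fold changes among those called, with a mean of at least 50 counts and no overlap between the deletions. Circles are the libraries labelled *Δsaf5*, squares *Δcwf12* and triangles WT, and genes run down from the largest to the smallest log2 fold change. The 2 deletions are apart in every row, while WT lies on either side or between.

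A larger share of the noncoding RNAs was called than of the coding genes. Of 1000 tested long noncoding RNAs, 116 were higher (11.6%) and 125 lower (12.5%) at least 2-fold, against 128 (2.59%) and 138 (2.79%) of 4942 coding genes. Of all 573 genes with a mean under 50 counts in the deletion libraries, 106 were higher (18.5%) and 41 lower (7.16%), against 21 (0.590%) and 103 (2.89%) of 3558 with a mean of 500 or more. The filter works by strain, so a gene with few counts can be tested because 1 strain is high, and the balance at low levels depends on that. With 10 counts required in every library, 182 genes of all levels were higher and 251 lower. SPNCRNA.1337, annotated opposite *omh4*, a mannosyltransferase gene, had 45 and 41 counts in the libraries labelled *Δsaf5*, against 925 and 852 in *Δcwf12* and 75 and 119 in WT, log2 fold change -4.25 (SE 0.12, adjusted p = 3.0e-35). *Δcwf12* alone was high. SPNCRNA.1641, opposite *vps1301*, had 20 and 14 counts in the libraries labelled *Δsaf5*, against 236 and 178 in *Δcwf12* and 122 and 101 in WT, and SPNCRNA.1307 had 10 and 19 counts in the libraries labelled *Δsaf5*, against 164 and 164 in *Δcwf12* and 220 and 264 in WT. In these 2 RNAs the libraries labelled *Δsaf5* alone were low, with log2 fold changes of -3.47 and -3.37. SPNCRNA.610, opposite a gene of the SPAC11D3 stretch, was lower too (-3.13). On the higher side SPNCRNA.561, opposite the kinesin gene *pkl1*, had 107 and 92 counts in the libraries labelled *Δsaf5*, against 17 and 12 in *Δcwf12* and 43 and 35 in WT, log2 fold change 2.89 (SE 0.26, adjusted p = 1.8e-14). It was followed by SPNCRNA.1527 (2.41), SPNCRNA.978 (2.29), SPNCRNA.301 (2.14) and SPNCRNA.698 (1.86). The strand setting of the counting is not given in the sources used here, so reads of an RNA and of the gene opposite it may be mixed.

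The remaining lists had called members on both sides, as had all genes tested, with 32.0% higher and 31.3% lower. The sterol list had 5 higher and 8 lower of 21, the heat shock proteins 6 and 8 of 23, the cell wall synthases 5 and 4 of 20, the flocculins 4 and 4 of 13, and the phosphate genes 2 and 2 of 7. The hexose transporters and glucose-repressed genes had 5 higher and 8 lower of 19, and the detoxification transporters 2 and 2 of 9. Tubulin and actin genes had 3 and 3 of 13, the telomere proteins 4 and 4 of 11, and the Mmi1 and RNA elimination factors 6 and 2 of 15. Of 24 tested *wtf* genes, a family of spore killers with similar copies, 10 were higher and 5 lower. Leaving out 1 library moved many of these small counts. Without the first *Δcwf12* library, 2 flocculins, 2 genes of the hexose list, 3 sterol genes, 2 RNA elimination factors and 1 phosphate gene were higher, and 5 heat shock genes, 1 cell wall gene, 2 *wtf* genes, 1 tubulin or actin gene and no phosphate gene were lower. Without the second *Δcwf12* library, 2 flocculins, 3 genes of the hexose list, 3 sterol genes, 1 phosphate gene and 1 detoxification gene were higher, and 5 heat shock genes and 2 *wtf* genes were lower. Without the first library labelled *Δsaf5*, 2 telomere genes were higher, and without either of these libraries 3 *wtf* genes were lower. In the list of small nuclear and nucleolar RNAs 4 were tested, with 1 higher and 1 lower. Of all genes annotated as snoRNA 7 were tested, with 2 higher and 2 lower. Genes of the mitochondrial genome and tRNA genes did not pass the filter and were not tested.

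**Figure D5:**
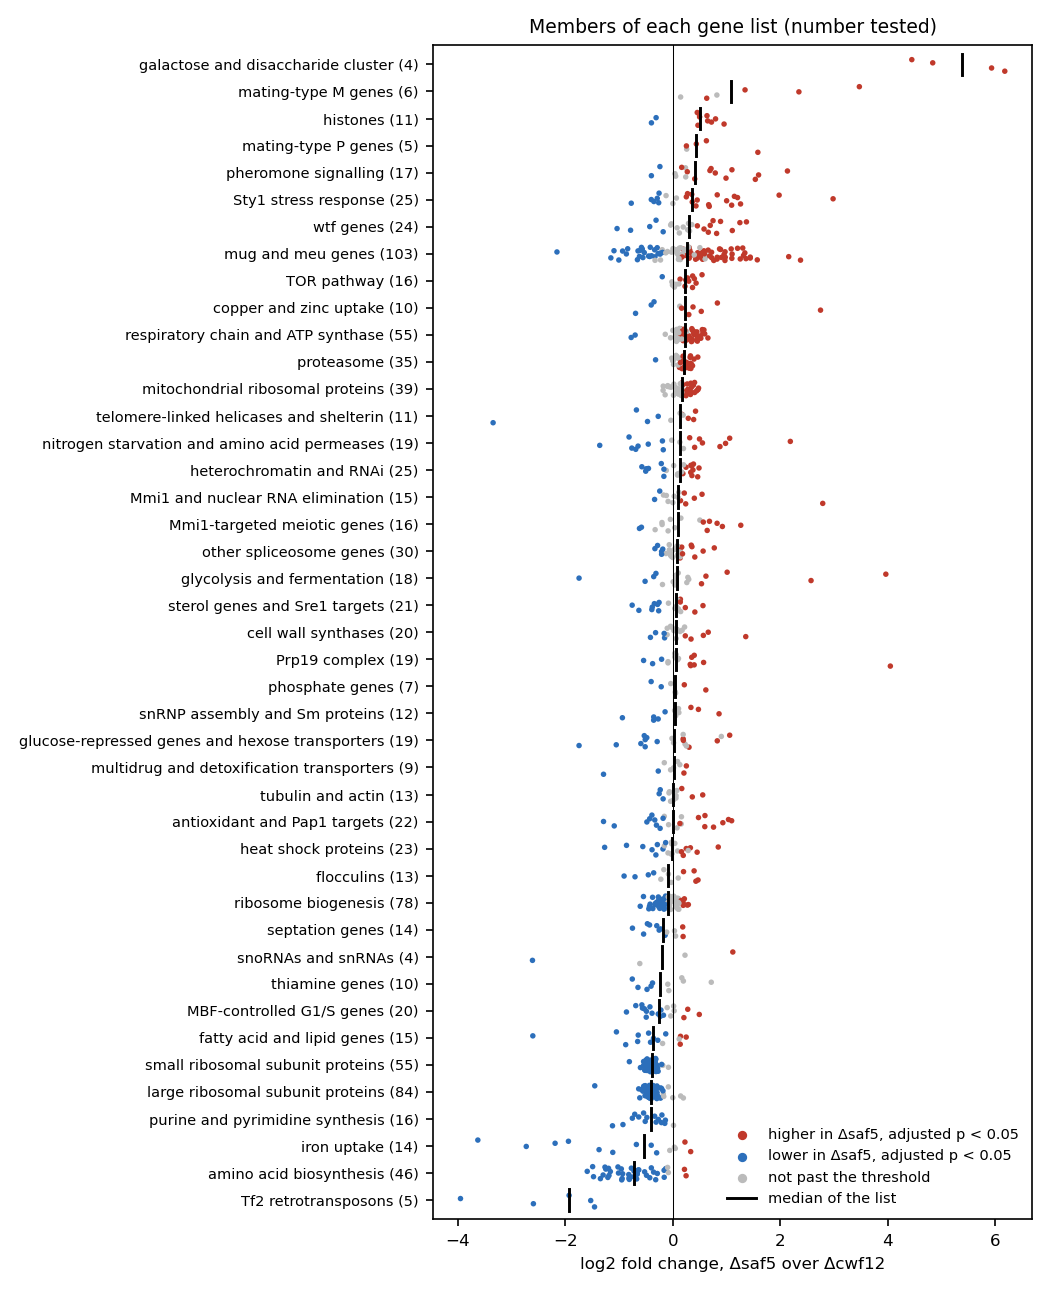
Log2 fold change (horizontal axis, *Δsaf5* over *Δcwf12*) of every tested member of each gene list with 4 or more tested genes, with the number tested in parentheses. Points are genes, red or blue where the adjusted p was under 0.05 and grey otherwise, and black bars are medians. Lists run from the galactose genes at the top, with a median of 5.38, to the Tf2 copies at the bottom, with a median of -1.93, and nearly all ribosomal protein genes lie left of 0.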

How the data were processed

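PolyA-selected RNA of the 6 libraries was sequenced, and the deposited table holds raw read counts per gene. Per the labels and methods, the authors mapped reads to ASM294v2 with STAR and counted them with HTSeq. Trimmomatic and DESeq2 are also among the tools named. Versions, annotation release and strand setting are not given in the sources used here. Counts were analysed with edgeR 4.0.16 in R 4.3.3: genes were filtered with filterByExpr by strain (minimum count 10, minimum total 15), scaled by TMM and tested with glmQLFit and glmQLFTest (two-sided) on the 4 deletion libraries, with Benjamini-Hochberg adjustment. Calls used the adjusted p (threshold 0.05) and, where 2-fold is stated, a difference of at least 1 on the log2 scale. Standard errors were derived from the F statistic of each gene. The deposited gene length column was not used.

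Names, introns and chromosome ranks came from the RefSeq annotation of ASM294v3, to which 6846 of 7268 IDs matched. The members, the 45 gene lists and the rule for named genes were chosen with earlier results of these data known, and list entries whose symbol matched an unrelated gene were removed after values had been seen. One gene of the septation list is not reported here. Named were the deleted genes, the 15 coding genes and 5 noncoding RNAs with the largest and smallest log2 fold changes among called genes with a mean of at least 50 counts and no overlap, up to 4 members of each list by adjusted p with its regulators, and further list members as examples. Other names are marked in the text. Alternatives were DESeq2 1.42.0, its size factors, TMM from coding genes, other filters, all 6 libraries in the fit, a test against 1.5-fold, a replicate block and each library left out. The fits were checked on simulated data.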

Additional observations from a re-analysis of the deposited data

How the results depend on the processing

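The counts of genes called at least 2-fold stayed within 1.5 times under every alternative, between 182 and 266 higher and between 251 and 291 lower in the libraries labelled *Δsaf5*. The lowest counts, 182 and 251, came from requiring 10 counts in every library, which tests fewer genes (5844). There 181 of the 250 higher calls and 251 of the 273 lower calls were kept. The main filter works by strain, so it also admits genes nearly absent from 1 strain through the strain where they are high. DESeq2 gave 217 higher and 269 lower, of which 217 and 262 were also called by edgeR. With 1 library left out they ran from 233 to 265 higher and from 268 to 291 lower. At the adjusted p alone the range was 1333 (DESeq2) to 1931 higher and 1445 to 1899 lower, and with 1 library left out 1438 to 1931 higher and 1445 to 1897 lower. With the replicate number as a replicate block, 250 genes were higher and 272 lower at least 2-fold, and 1930 and 1833 at the adjusted p alone. The labels do not tie the numbers to a shared day or batch, and with 2 pairs the deviations of same-numbered libraries correlated at -0.03, so the numbers were not taken as pairs. The block removed no call among 224 named genes.

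No named gene past the threshold changed sign, and 3 below it did. The medians of 6 lists changed sign in at least 1 alternative, all of them at most 0.19 in size, among them the other spliceosome genes, at -0.02 without the second library labelled *Δsaf5*. Of 2680 recomputed gene results 159 lost their call, 110 of them in the test against 1.5-fold, and 3 gained one. The other 49 fell in 19 genes, *saf5* among them, for which the cause was not tested. Of 473 recomputed list medians 55 moved by more than their spread. Genes with few counts in *Δcwf12*, such as *gal1* and *mel1*, have fold changes that depend on the prior count, and 2 libraries a strain limit every comparison.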

Other observations

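Genes for the kinetochore, the structure that ties chromosomes to the spindle, were examined as a group taken from the annotation after values had been seen. Of 45 tested genes 15 were higher in the libraries labelled *Δsaf5* (33.3%) and 11 lower (24.4%), against 32.0% and 31.3% of all genes tested. The median log2 fold change was 0.05. At least 2-fold, 4 were lower (8.89%, against 4.55% of all genes tested) and none higher. All 4 were among the 25 genes with an intron (16.0%), and none among the 20 without. *fta3* had 162 and 160.2 CPM in the libraries labelled *Δsaf5*, against 535 and 539.9 CPM in *Δcwf12* and 194 and 195 CPM in WT, log2 fold change -1.72 (SE 0.06, adjusted p = 6.4e-31). *dad3* had 21.8 and 20.9 CPM in the libraries labelled *Δsaf5*, against 61.9 and 56.9 CPM in *Δcwf12* and 20.6 and 21.6 CPM in WT, log2 fold change -1.47 (SE 0.09, adjusted p = 1.2e-19). In both genes *Δcwf12* alone was high, and the libraries labelled *Δsaf5* were near WT. *fta6* (-1.32) and *mis18* (-1.02), which encodes a factor that loads the centromeric histone, followed.

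Of 20 tested pseudogenes 3 were lower at least 2-fold and none was higher. Of all genes tested, 4.55% were lower and 4.17% higher at least 2-fold. At the adjusted p alone, 9 of the 20 pseudogenes were lower and 5 higher. The coding genes of chromosome III had 18 higher (2.01%) and 30 lower (3.35%) of 895, those of chromosome I had 66 (2.94%) and 55 (2.45%) of 2248, and those of chromosome II had 44 (2.45%) and 53 (2.95%) of 1799. Noncoding RNAs with an annotated coding gene on the other strand had 76 higher (10.3%) and 95 lower (12.8%) of 740, and those without one 40 (15.4%) and 30 (11.5%) of 260.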
